A study of Arabidopsis thaliana with 6 samples.

Results

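The ERF, DREB, CBF and RAP2 genes of Arabidopsis encode transcription factors with an AP2/ERF DNA-binding domain. They were taken as every nuclear protein-coding gene whose symbol or synonym in the gene table starts with 1 of these 4 prefixes and that encodes such a protein. Of 54 genes with a matching name, 47 were kept, out of 27444 protein-coding genes in all. The 7 left out were 3 eukaryotic release factor genes, the dyskerin homologue gene NAP57, the ubiquitin ligase genes DRIP1 and DRIP2, and RAV2 of the RAV family, which carries the synonym RAP2.8. The data are ChIP-seq peaks of EBS, a chromatin protein that binds methylated histone H3 tails and delays flowering.

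All 6 samples came from whole Col-0 seedlings about 10 days old, grown on plates in 16 h light and 8 h dark with no treatment. All carried the same genotype: the ebs shl mutant, which lacks EBS and its relative SHL, with an EBS:FLAG transgene under the EBS promoter. The 3 ChIP samples were precipitated with an anti-FLAG antibody and each has its own peak list, and the 3 input DNA samples have no values of their own here. A ChIP from untagged plants was not analysed here, so EBS binding and background that recurs in the procedure cannot be told apart. The labels do not give the number of transgenic lines.

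The lists held 5237, 4216 and 3661 nuclear peaks in replicates 1, 2 and 3. The lists carry no read numbers, and depth is unknown. Each peak has the authors' score, which starts at 20 and is larger for a more significant peak. Scores depend on depth and were ranked only within a list, but a fixed cut of 100 was also applied to every list. The labels do not say whether each replicate was grown separately, and the spread between lists may be technical.

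ERF proteins bind the GCC box and act in ethylene, jasmonate and pathogen responses, while DREB proteins, which include the CBF proteins, bind the DRE element and act in drought and cold. Some members are activators, and others carry an EAR motif, through which plant repressors recruit TOPLESS corepressors and histone deacetylases. Many of these genes have little transcript in unstressed tissue and are induced quickly by a stimulus. The genes were chosen by name, but the family itself was proposed with its peaks and scores in these lists known, so the counts below are descriptions and carry no test.

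A gene was counted as bound in a replicate when a peak of that list overlapped its body or 1000 bp on either side. In replicate 1, 17 of the 47 members were bound (36.2%), against 20.8% of all protein-coding genes. In replicate 2, 22 members were bound (46.8%), against 17.1% of all genes. In replicate 3, 16 members were bound (34.0%), against 11.7% of all genes. The mean over the lists was 39.0% ± 6.84 (SD, n = 3) for the members and 16.6% ± 4.57 for all genes.

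All 3 lists held a peak at 9 members (19.1%), against 6.09% of all genes. The same 9 held a merged region with peaks of all 3 lists, as 6.68% of all genes did. These were ERF4, ERF7, ERF8, ERF10, ERF13, ERF-1, ERF38, RAP2.1 and RAP2.4. A further 9 members were bound in exactly 2 lists, where 5.84% of all genes were, and 10 in exactly 1 list, where 19.7% of all genes were. The remaining 19 members had no peak in any list, and 28 (59.6%) had a peak in at least 1, against 31.7% of all genes. Of the members in 2 lists, 5 were bound in replicates 1 and 2 and no other (3.67% of all genes), 4 in replicates 2 and 3 (0.958% of all genes) and none in replicates 1 and 3 (1.21% of all genes). Of those in 1 list, 3 were bound in replicate 1 (9.84% of all genes), 4 in replicate 2 (6.43% of all genes) and 3 in replicate 3 (3.48% of all genes). The count of members bound in every list could only stay or rise when a list was left out, so only its size is of interest. Without replicate 3, 14 members were bound in both remaining lists, where 9.76% of all genes were. It was 13 without replicate 1 (7.05% of all genes) and 9 without replicate 2 (7.30% of all genes). In at least 2 lists, 18 members (38.3%) were bound, against 11.9% of all genes.

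**Figure D1:**
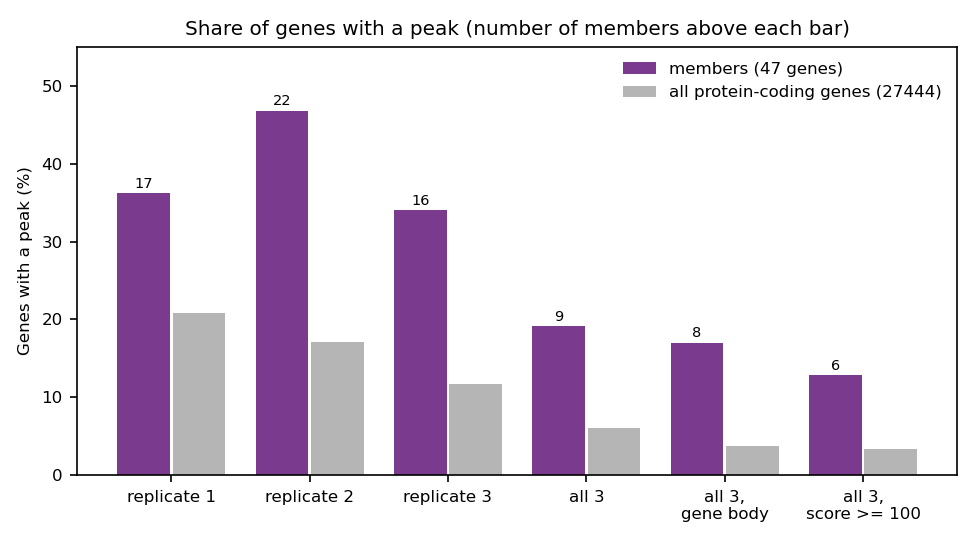
Percentage of genes with a peak on the body or within 1000 bp, for the 47 members (purple) and all 27444 protein-coding genes (grey). The number above each purple bar is the number of members, from 22 in replicate 2 to 6 when every list needs a score of at least 100, and the purple bar is the higher of the pair in each of the 6 settings.

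Where a member was bound, the peak lay on the gene itself. Of the 55 combinations of a member and a list with a peak, 54 had a peak on the gene body (98.2%). Among all protein-coding genes the body was reached in 68.1% of 13638 such combinations, and the rest had a peak in the flank alone. The exception was ERF10 in replicate 3, whose nearest peak lay 218 bp outside the gene. The peak or peaks covered at least 50% of the body in 81.8% of the members' combinations and in 22.7% of those of all genes. Coverage depends on gene length, and the members were short, with a median of 1273 bp against 2078 bp for all genes. The gene table gives no strand and no exons, so promoters, exons and introns were not analysed here.

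The 1000 bp limit decided few calls. ERF10 in replicate 3 was the only call that rested on the flank. Just outside the limit lay a replicate 2 peak 1024 bp from DREB2B with a score of 22.95 and a replicate 1 peak 1160 bp from ERF2 with a score of 49.53. With a flank of 500 bp the counts of 17, 22 and 16 members stayed as they were, and with gene bodies alone 8 members were bound in every list, against 3.75% of all genes.

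**Figure D2:**
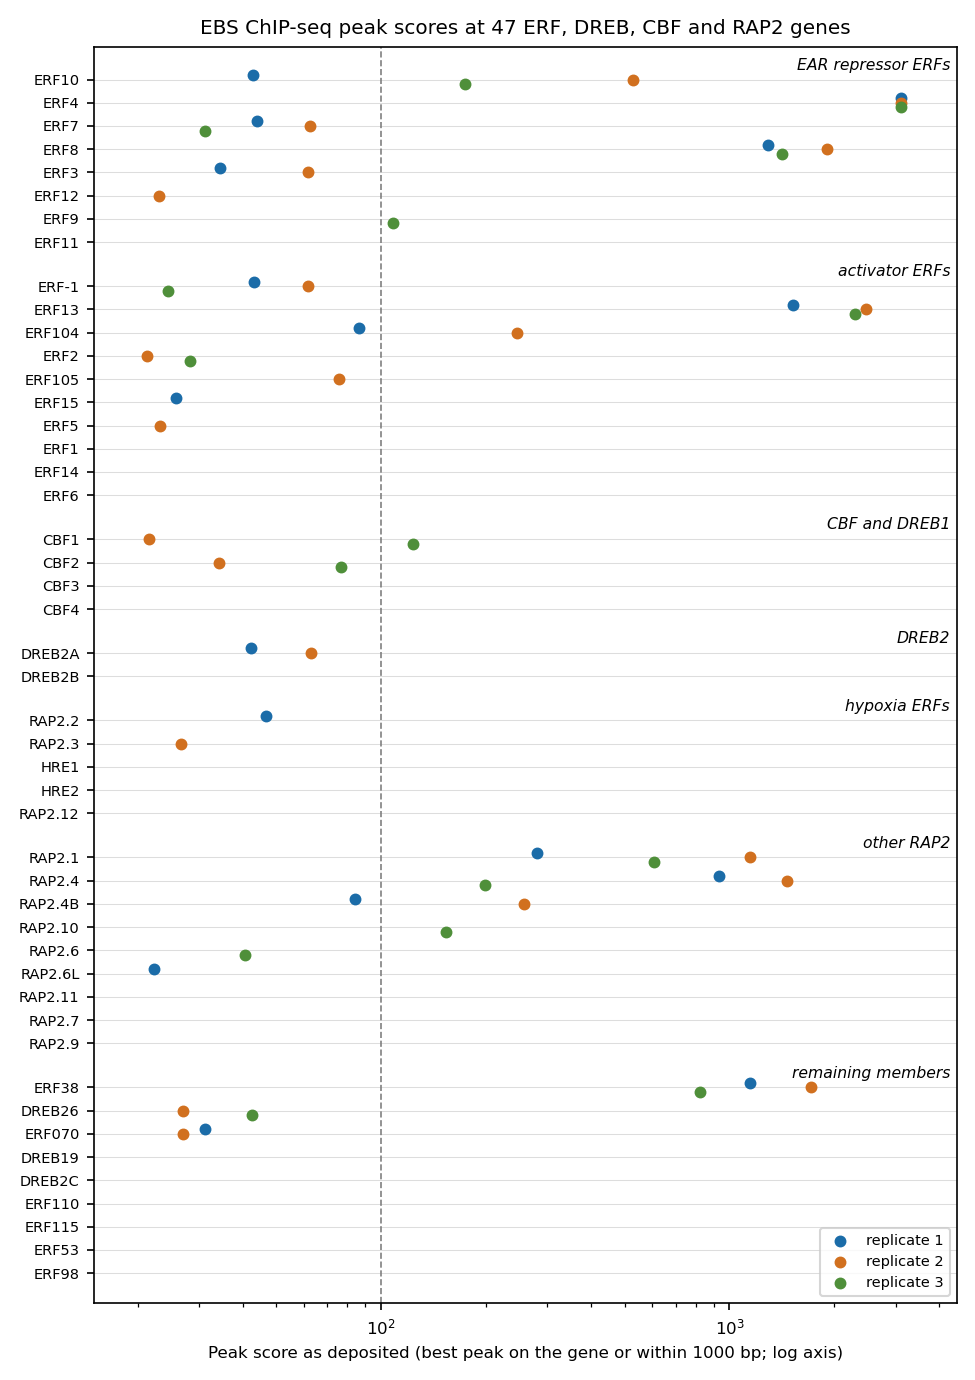
Score of the best peak at each of the 47 members on a log axis, with 1 point per list and no point where the list has no peak; the dashed line marks a score of 100. ERF4 stands at 3100 in all 3 lists, and 19 members have no point. For ERF10 and RAP2.1 the replicate 2 point is a peak outside the gene body.

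The EAR repressor class held 8 genes, ERF3, ERF4 and ERF7 to ERF12. RAP2.1, which also encodes an EAR-motif repressor and was bound in all 3 lists, was counted with the other RAP2 genes instead. Of the 8, 4 were bound in all 3 lists (6.09% of all genes) and 1 in exactly 2 (5.84% of all genes). Another 2 were bound in exactly 1 (19.7% of all genes) and 1 in none. The 4 include ERF10, whose call is uncertain. When every list needed a score of at least 100, 2 of the 8 were left, where 3.36% of all genes were. The 9 other RAP2 genes also had 2. The classes used here were drawn up from general knowledge with earlier results of these data known, and differences between them were not tested.

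ERF4 encodes a repressor of ethylene, jasmonate and abscisic acid responses that also acts in leaf senescence. Its scores were 3100 in replicates 1, 2 and 3, and these peaks stood above 98.3%, 97.7% and 98.7% of the peaks of their lists. In these lists 88, 97 and 46 peaks scored 3100 or more, and ERF4 was not ranked among them. The 3 equal values therefore do not measure equal strength. They lay on chromosome 3 from 5121101 to 5122672, from 5120691 to 5123538 and from 5121292 to 5122923 (TAIR10). Each covered 100% of the gene body. The shared region reached no other protein-coding gene. Weak peaks 817 and 717 bp from the gene in replicates 2 and 3 had scores of 20.09 and 20.84, near the lowest of their lists.

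ERF8, which encodes another EAR repressor, scored 1290.4, 1904.87 and 1412.37 in replicates 1, 2 and 3. The peaks lay above 94.1%, 94.9% and 94.1% of their lists, so the gene ranked alike in each. They spanned chromosome 1 from 19821130 to 19822392, from 19820290 to 19823040 and from 19821165 to 19822350. They covered 99.3%, 100% and 95.4% of the body.

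ERF7 encodes a repressor in abscisic acid responses of guard cells. The best scores there were 44.09, 62.45 and 31.18, all under 100. These peaks stood above 59.4%, 59.6% and 24.1% of the peaks of lists 1, 2 and 3. The peaks lay toward the end of the gene with the higher coordinates in replicates 1 and 3 (chromosome 3, 7085448 to 7086918 and 7086053 to 7086889). In replicate 2 a peak from 7085090 to 7086082 with a score of 24.12 was followed by the stronger one from 7086185 to 7088118, which also reached ABCI15.

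ERF10 was the least certain of the 9. Its best scores were 42.87, 527.88 and 173.8, but the replicate 2 value belongs to a peak 982 bp away that lay on SOM. The peak on the ERF10 body in replicate 2 had a score of 111.48 and covered 49.5% of it. The replicate 1 peak covered 5.55% of the body and the replicate 3 peak none. The region common to the lists (chromosome 1, 958313 to 959382) lay mainly on the neighbouring gene AT1G03810. When each peak was counted only for the gene it overlapped most, with 1000 bp flanks included, ERF10 was bound in 1 list. The other 8 members were still bound in all 3, where 3.75% of all genes were.

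The rest of the repressors had weaker or partial calls. ERF3 scored 34.34 in replicate 1 and 61.77 in replicate 2 and had no peak in replicate 3. ERF9 had a peak in replicate 3 alone, with a score of 108.09. ERF12 had a peak in replicate 2 alone, with a score of 22.96, and its neighbour ERF11 had none.

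**Figure D3:**
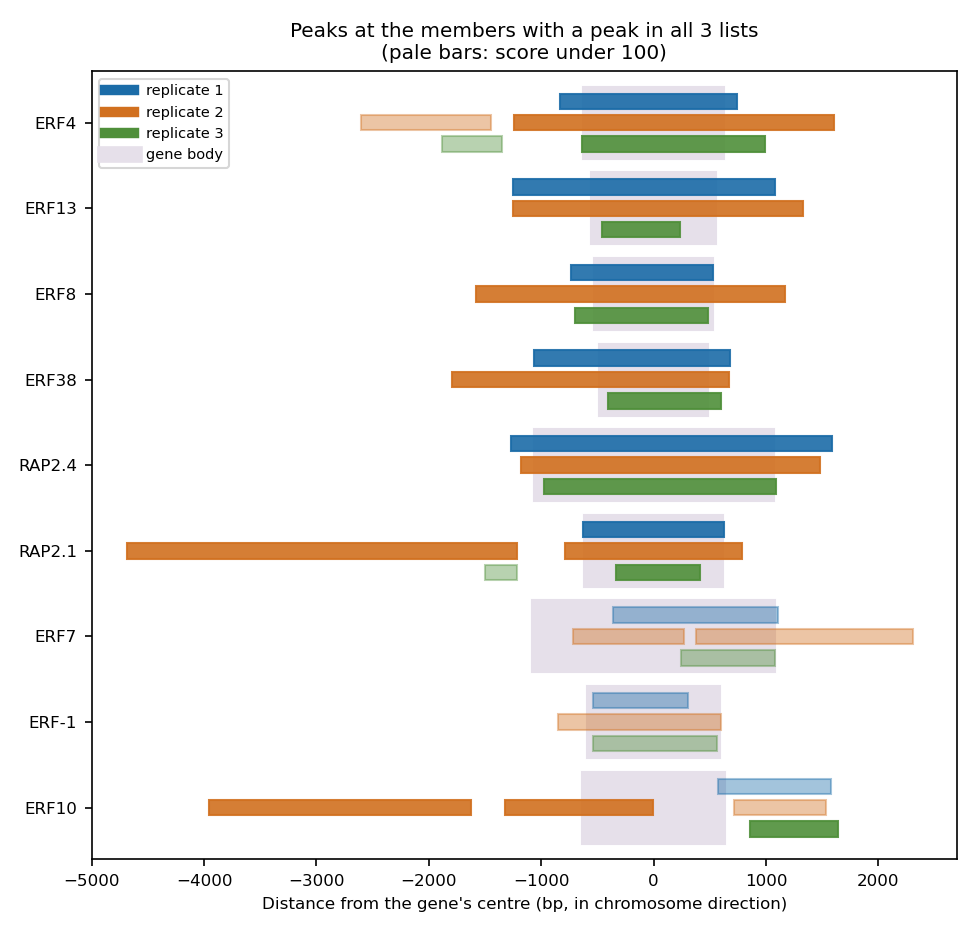
Peaks of each list at the 9 members bound in all 3 lists, drawn to scale as distance in bp from the gene's centre, with the gene body in pale purple and peaks with a score under 100 in paler colour. The peaks of ERF4, ERF8, ERF13, ERF38 and RAP2.4 lie over the gene body in every list, while those of ERF10 in replicates 1 and 3 lie at or beyond its edge.

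The activator ERFs, which bind the GCC box and switch on defence and wound genes, were bound in all 3 lists in 2 of 10 cases, against 6.09% of all genes. ERF13, which encodes a member of the ethylene-response activator group, had scores of 1523.52, 2464.87 and 2290.99. The peaks stood above 94.9%, 96.3% and 97.5% of their lists. They lay on chromosome 2 from 18494519 to 18496853, from 18494523 to 18497102 and from 18495317 to 18496004. The replicate 3 peak was narrow (688 bp) and covered 61.8% of the body, whereas the others covered 100%.

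ERF-1, which encodes the activator also named ERF1A, had scores of 43.16, 61.48 and 24.37. These peaks stood above 58.7%, 59.1% and 12.8% of their lists. They overlapped one another: chromosome 4 from 9759258 to 9760104, from 9758943 to 9760397 and from 9759256 to 9760362. They covered 71.2%, 100% and 93.1% of the body.

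The activators bound in 2 lists were ERF104, which scored 86.37 in replicate 1 and 245.28 in replicate 2, and ERF2, which scored 21.19 in replicate 2 and 28.33 in replicate 3. ERF104 is a target of a MAP kinase in immunity. ERF5 (score 23.2 in replicate 2), ERF105 (75.85 in replicate 2) and ERF15 (25.73 in replicate 1) were bound in 1 list. The ERF105 peak, 1108 bp wide, held 965 bp of ERF105 and 1045 bp of the overlapping gene AT5G51180, so it lay slightly more on the neighbour. ERF1, the direct EIN3 target that joins ethylene and jasmonate signals, had no peak in any list, and neither did ERF6 or ERF14.

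Of the 4 CBF genes, master regulators of cold acclimation, 2 were bound in exactly 2 lists, where 5.84% of all genes were. None was bound in all 3 lists, where 6.09% of all genes were, and 4 genes are too few to differ from that share. CBF1 had scores of 21.6 and 123.22, and CBF2 34.27 and 76.64, in replicates 2 and 3, and both had no peak in replicate 1. In replicate 1 the nearest peak lay 39420 bp from CBF1 and 32890 bp from CBF2. CBF3, which lies between them, had no peak in any list, the nearest ending 1503 bp away in replicate 2. CBF4, which acts in drought, had none. CBF1, CBF2 and CBF3 are close copies of one another in sequence. How reads that fit more than 1 copy were treated was not stated, so the division of signal among the copies is uncertain.

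DDF1 and DDF2, the closest relatives of the CBF genes, are also known as DREB1 genes, but the gene table gives them no symbol or synonym with the 4 prefixes, so the rule did not take them. Both were bound in all 3 lists, DDF1 with scores of 68.67, 36.51 and 222.45 and DDF2 with 1136.34, 1649.27 and 1660.1, and all 6 peaks lay on the gene body. Counted with the CBF genes, they would make 2 of 6 bound in all 3 lists, where 6.09% of all genes were. In replicates 2 and 3 both DDF scores were above those of CBF1 and CBF2.

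DREB2A, the activator of drought and heat responses, had scores of 42.34 and 62.94 in replicates 1 and 2. The higher replicate 2 value came from a peak with 100 bp on the body, and a peak of 35.28 covered most of the rest. DREB2B had no peak within 1000 bp, and neither did DREB2C or DREB19.

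The hypoxia ERFs are kept unstable by oxygen through their N-terminal cysteine. Of the 5, 2 were bound in at least 1 list, where 31.7% of all genes were. None was bound in at least 2 lists, where 11.9% of all genes were, and 5 genes are too few to differ from that share. RAP2.2 had a score of 46.81 in replicate 1 and RAP2.3 of 26.69 in replicate 2. RAP2.12, HRE1 and HRE2 had no peak in any list.

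**Figure D4:**
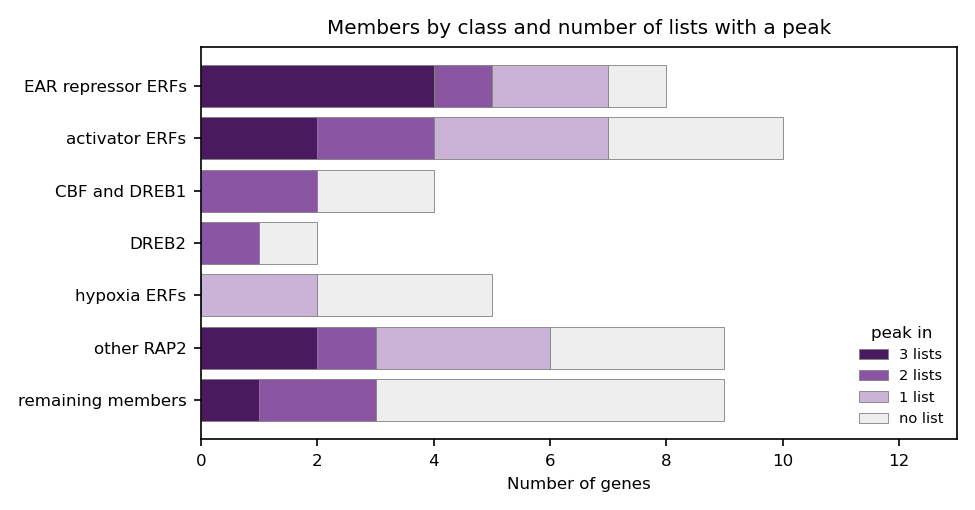
Number of members in each class by the number of lists with a peak (dark purple for 3 lists, grey for none). The EAR repressor class has 4 of 8 genes in all 3 lists and the activators 2 of 10, where 6.09% of all genes were bound. The CBF, DREB2 and hypoxia classes have none, but they hold only 4, 2 and 5 genes.

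Among the other RAP2 genes, 2 of 9 were bound in every list, against 6.09% of all genes. RAP2.4, also named WIND1 for its part in wound-induced dedifferentiation, had scores of 930.28, 1464.93 and 198.27. The replicate 3 peak was lower in its list than the others were in theirs, above 61.8% of peaks against 91.7% and 93.0%. The peaks lay on chromosome 1 from 29363869 to 29366727, from 29363960 to 29366624 and from 29364168 to 29366227. They covered 100%, 100% and 95.5% of the body.

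AT1G22190, called RAP2.4B here, is listed with the synonym RAP2.4 as well. Its scores were 84.08 and 256.67 in replicates 1 and 2, over 100% of the body in each, and the nearest replicate 3 peak lay 9425 bp away. Both RAP2.4 genes were covered from end to end in replicates 1 and 2, and they parted in replicate 3.

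RAP2.1, which encodes an EAR-motif repressor of cold and drought responses, had scores on the body of 279.42, 192.37 and 606.86. These peaks lay on chromosome 1 from 17265574 to 17266834, from 17265419 to 17266992 and from 17265868 to 17266619. A separate region that ended 594 bp from the gene (17261518 to 17264992) lay on AT1G46696 and held the replicate 2 peak with the higher score of 1147.26. RAP2.10 had a peak in replicate 3 alone (score 153.86), as had RAP2.6 (40.56), and RAP2.6L had a peak in replicate 1 alone (22.28). RAP2.7, RAP2.9 and RAP2.11 had none, and RAP2.7, which encodes the flowering repressor TOE1, was the member farthest from any peak (37219 bp).

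In none of these classes, ERF38 encodes a member of a DREB subfamily. Its scores were 1145.14, 1718.45 and 825.1, above 93.3%, 94.1% and 87.7% of the peaks of the lists. The peaks lay on chromosome 2 from 15004485 to 15006225, from 15003754 to 15006222 and from 15005148 to 15006149, and covered 100%, 100% and 91.3% of the body. DREB26 had 26.92 and 42.56 in replicates 2 and 3, and CRF8, listed as ERF070, had 31.29 and 26.88 in replicates 1 and 2. ERF53, ERF98, ERF110 and ERF115 had no peak in any list.

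The 9 members fell apart by score. ERF4, ERF8, ERF13, ERF38, RAP2.1 and RAP2.4 had a score of at least 100 on the gene body in every list, where 3.36% of all genes had such a peak on the body or flank in every list. ERF7 and ERF-1 were under 100 in every list, and ERF10 was mixed. Scores reached 100 at 6, 9 and 10 of all members in replicates 1, 2 and 3, against 4.55%, 4.96% and 5.83% of all genes. Outside the 9, such a score was found in 1 list each for ERF104, RAP2.4B, CBF1, ERF9 and RAP2.10. The cut of 100 fell at a different rank in each list. It was reached by 27.5% of peaks in list 1, 32% in list 2 and 50.4% in list 3. CBF1, ERF9 and RAP2.10 passed it in replicate 3, above 53.1%, 51.3% and 56.9% of that list, so these were mid-list peaks. ERF104 and RAP2.4B passed it in replicate 2, above 78.3% and 78.7% of that list.

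The best peaks at bound members had median widths of 1261, 1370.5 and 968.5 bp in replicates 1, 2 and 3, against 699, 880.5 and 652 bp for all nuclear peaks. These 2 sets are unlike, because the second is every peak and not the best peak of each bound gene. Widths of the best peaks over all bound genes were not analysed here. The members' widths in replicate 2 include the peaks outside the bodies of ERF10 and RAP2.1. Median scores of the members' best peaks were 46.8, 62.7 and 139, against 31.2, 38.9 and 99.3 over all bound protein-coding genes.

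Several members lie near one another on a chromosome. Within 10000 bp of each other lay 7 pairs made of 11 members in 5 groups, and no pair shared a peak in any list. The gaps ran from 1774 to 6924 bp, against median widths of 699, 880.5 and 652 bp for all nuclear peaks. At the wider gaps a shared peak would have had to be far wider than these medians, so its absence says little there. ERF-1 was bound in all 3 lists, while ERF6, 5041 bp away, was bound in none. CBF2 and CBF1 were bound in 2 lists with CBF3 unbound between them. ERF12 was bound in 1 list and ERF11 in none, ERF2 in 2 and ERF5 in 1, and ERF98 and ERF1 in none.

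**Figure D5:**
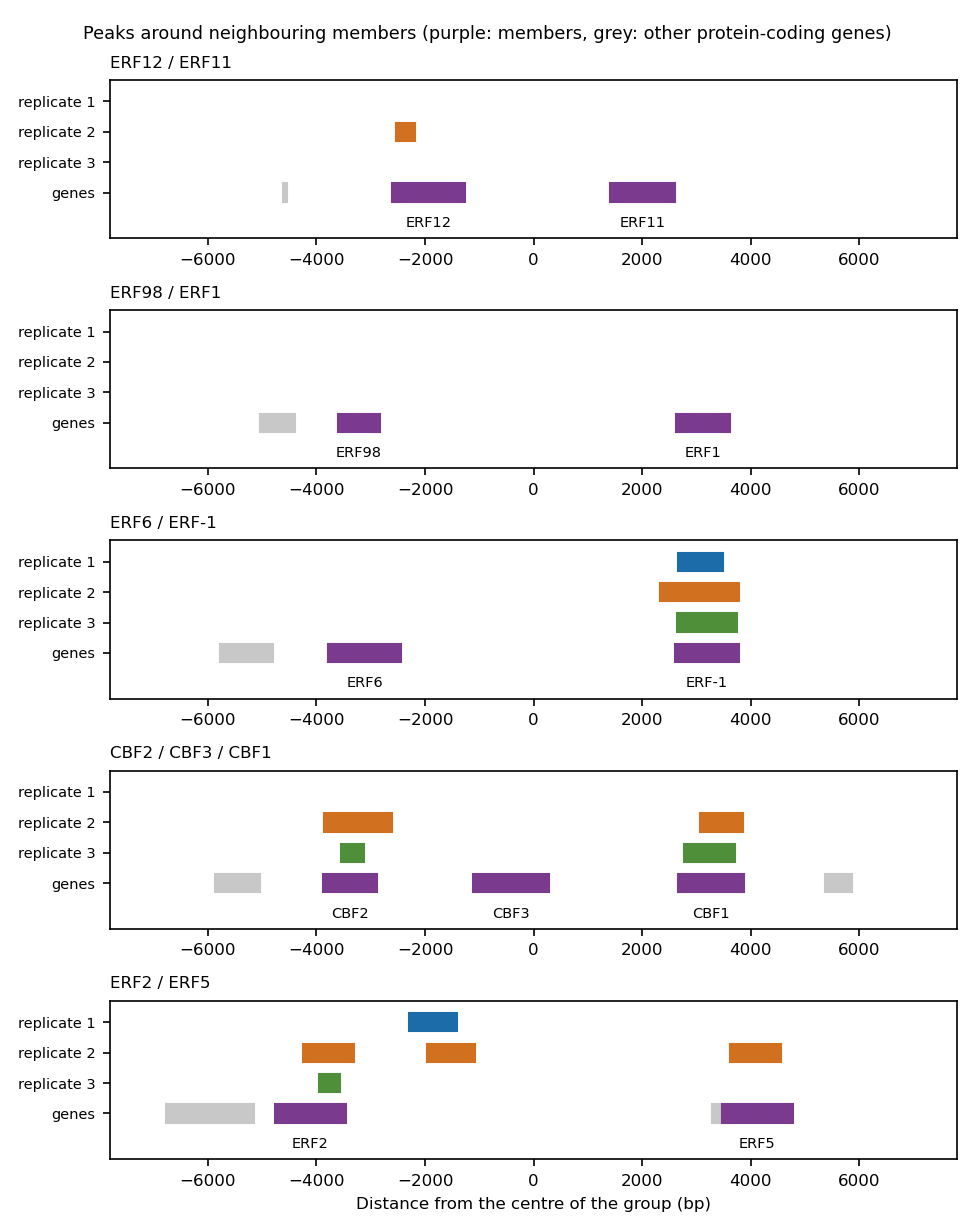
Peaks of each list (blue, orange and green for replicates 1, 2 and 3) and genes (purple for members, grey for other protein-coding genes) around the 5 groups of neighbouring members, with distance in bp from the group's centre. No peak spans a pair of members: ERF-1 carries 3 and ERF6 none, and CBF3 is empty between CBF2 and CBF1.

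Genes that act above, beside or below these factors had no peak common to all lists. Of 37 genes in 4 pathway lists, 13 (35.1%) had a peak in at least 1 list, against 31.7% of all genes, 6 (16.2%) in at least 2, against 11.9%, and none in all 3, against 6.09%. The highest score among them was 64.76, for the cold and oxidative stress repressor gene ZAT12 in replicate 2.

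In ethylene signalling, 3 of 13 genes had a peak in at least 1 list, where 31.7% of all genes did. EBF1 and EBF2, which encode the F-box proteins that remove EIN3, had 34.47 and 36.94, and 35.06 and 21.82, in replicates 1 and 2, and the kinase gene CTR1 had 22.9 in replicate 1. The receptor genes, EIN2, EIN3 and EIL1 had none. Above CBF, CAMTA2 had 28.21 and 20.57 in replicates 1 and 2, CAMTA3 had 25.75 in replicate 1, and ICE1 had no peak. In the hypoxia pathway 4 of 8 genes had a peak in at least 1 list, against the same 31.7%, among them the cysteine oxidase gene PCO1 (42.05 in replicate 1).

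Among the EAR corepressor genes, TPL, which encodes TOPLESS, had 24.18 and 32.97 in replicates 1 and 3, TPR4 had 22.03 and 41.76 in replicates 1 and 2, and the histone deacetylase gene HDA19 had 26.76 in replicate 1. The other 4 of 7 had none, and the same share of all genes applies to the 3 with a peak.

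A list of 20 further AP2/ERF genes with other symbols was drawn up after the members' values were seen. Of these, DDF1 and DDF2 were the 2 bound in all 3 lists, where 6.09% of all genes were. None of the 11 cytokinin response factor genes in it (CRF1 to CRF7 and CRF9 to CRF12) had more than 1 list with a peak. In at least 2 lists 11.9% of all genes had a peak, and CRF8, a member listed as ERF070, was bound in 2. The RAV genes RAV1, TEM1 and RAV2, left out by the rule, were bound in all 3 lists (6.09% of all genes) and EDF3 in none. RAV1 had scores of 126.26, 299.27 and 29.53.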

How the data were processed

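FLAG-tagged EBS was mapped in 3 ChIP samples, grouped and numbered by their titles. The build TAIR10 and the tools MACS 1.4, Bowtie2 2.2.8 and SAMtools 1.3 are named per the submitters' processing notes. The sources used here do not give the peak threshold or the use of input. Each ChIP sample has a list of its own, with 1 score per peak as the authors deposited it. Organelle peaks were left out. Percentages of a list below a peak were taken with scores capped at 3100.

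Genes came from a RefSeq table (TAIR10.1), whose nuclear frame was taken as that of TAIR10, and none of its coordinates is printed. Peaks are given counted from 1. Whether a protein has the AP2/ERF domain was judged from gene names, and prefixes were matched in any letter case. All pathway genes were matched by locus tag. No sequence was used.

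The members and lists were chosen with earlier results of these data known, so no test was run. The rule for named genes took members bound in all 3 lists, the 10 highest scores among the other bound members, the fixed classes and neighbours; the remaining members and the pathway genes bound in 1 or 2 lists were named after their values were seen. The code (Python 3.11.15, numpy 2.4.6) was tested on simulated lists. Alternatives were a score of at least 100, gene body only, a 500 bp flank, primary symbols, 1 gene per peak, at least 2 lists, each replicate left out, 50% overlap of the shorter peak and, added after seeing the data, exact letter case.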

Additional observations from a re-analysis of the deposited data

How the results depend on the processing

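With only peaks of score at least 100, the members bound in replicates 1, 2 and 3 numbered 6, 9 and 10, down from 17, 22 and 16. The shares of all genes fell as well, to 4.55%, 4.96% and 5.83% from 20.8%, 17.1% and 11.7%. Presence in at least 2 lists gave 18 members, by peaks or by merged regions, where 3 lists gave 9; the share of all genes with a peak went from 6.09% to 11.9%. Leaving out each replicate gave 9 to 14 members bound in both remaining lists, by peaks or by regions, and the 14 came from leaving out replicate 3. In all, 28 of 35 recomputed counts of members, among them those for gene body only, a 500 bp flank, primary symbols, 1 gene per peak, 50% overlap, exact letter case and leaving out replicate 1 or 2, lay within 1.5 times the main count. Of 90 class and pathway counts, 17 did not. Among the 17 were the EAR repressors bound in every list at a score of at least 100 (2, against 4, and as many as the other RAP2 genes). The activators at that score (1, against 2) were also among them. The share of all genes bound in every list went from 6.09% to 3.36% at that score. Many of the 90 were 0 in the main setting, and 0 against 0 was taken as unchanged. A stricter setting could not raise a 0, so those comparisons say little. No paired analysis was possible because the input samples that share replicate numbers with the ChIP samples have no values here. Depth is unknown, so a gene without a peak is not shown to be free of EBS.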
